A study of Mus musculus with 6 samples.

Results

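Kinesins are motor proteins that use ATP to walk along microtubules or to take them apart. They were followed here in whole testes of C57BL/6 mice, an inbred laboratory strain. The genes were chosen by symbol, as every gene whose name starts with Kif or Kifc and a digit: 44 of the 24411 genes in the deposited tables. Of these, 41 are motor genes. The other 3 are Kif1bp, a protein that binds kinesins and carries no motor, Kif4-ps, a pseudogene of Kif4, and Kif16bos, a noncoding RNA whose gene lies beside Kif16b on the opposite strand. A single symbol, Kif12, had 0 counts in all 6 libraries, and the remaining 43 passed the filter on low counts.

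Of the 6 libraries, 3 came from mice with the genotype MRP5-/- and MRP9-/- (labelled DKO, for double knockout) and 3 from Wildtype mice (labelled WT). The mice of both groups were matched for age. Neither their age nor how each allele was made is given in the sources used here. MRP5 and MRP9 are membrane transporters encoded by Abcc5 and Abcc12. The comparison asks which kinesin transcripts differ in testes labelled as lacking both.

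In dividing germ cells, kinesins build the spindle, move chromosomes and complete cytokinesis. In spermatids they work on the manchette, a sleeve of microtubules that shapes the sperm head and carries material to the tail, and they supply and move the flagellum. Other members carry vesicles and mitochondria along microtubules in many cell types. Because members act in different germ cell stages, their level in a whole testis reads both the mix of cells and the RNA per cell, and bulk RNA cannot tell fewer cells of a type from less RNA per cell.

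The libraries held 26753700 to 31746000 expected counts in the WT group and 42673600 to 67131100 in the DKO group, with mean fragment lengths of 230 to 258 and 275 to 317 bases, so that neither depth nor fragment length overlapped between the groups. Abcc12 was counted at 79.0 ± 5.56 CPM (TMM-normalized counts scaled to library size) in libraries labelled DKO and 160 ± 3.93 in those labelled WT (SD, n = 3 each; log2 fold change -1.02; edgeR adjusted p = 0.000307). Abcc5 stood at 16.8 ± 0.190 against 11.4 ± 0.897 CPM (log2 fold change 0.56, edgeR adjusted p = 0.0225), higher in the libraries labelled DKO. Transcript amount alone cannot test the label, as how each allele was made is not given. The groups are therefore named by their labels. Markers of germ cells and of the somatic cells of the testis were present, with 0 markers of the 9 cell types listed at 0 in every library. Summed markers of spermatocytes, the cells in meiosis, were at 2571 to 3163 CPM in the DKO group against 2320 to 2566, and 2 of 10, Sycp3 and Hormad1, were called higher by edgeR (1 with the trend on transcript length and GC content removed, with the median log2 fold change at 0.08 in place of 0.28). The sums of 5 endothelial markers (34.6 to 38.8 against 40.6 to 42.1 CPM) and of 5 markers of peritubular myoid cells (117 to 131 against 133 to 176 CPM) were lower without overlap. By edgeR 0 of the endothelial markers and 1 of the peritubular markers, Tagln (log2 fold change -0.58), were called lower. Of the markers of Leydig cells, the source of testosterone, 3 of 7 (Insl3, Hsd3b6 and Star, with log2 fold changes of -1.12, -1.09 and -0.79) were called lower, and their sum was 412 to 625 against 600 to 1145 CPM. Of the markers of Sertoli cells, which nurse the germ cells, 3 of 9 (Defb19, Rhox5 and Cldn11, at -0.97, -0.44 and -0.30) were called lower, and their sum was 997 to 1196 against 1164 to 1440 CPM. Both sums overlapped, as did those for spermatogonia, round and elongating spermatids and macrophages. In the other direction lay 1 Leydig marker (Hsd3b1, 0.21) and 2 Sertoli markers (Wt1 and Fshr, 0.08 each), none called. With the trend on length and GC content removed, 2 Leydig, 1 Sertoli, 1 peritubular and 0 endothelial markers were called lower. Over all tested genes 5.75% were called higher and 5.10% lower without that step.

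The motor genes together made up 2042 to 2144 TPM (a transcript share corrected for length) in libraries labelled DKO and 1873 to 1988 TPM in those labelled WT. That is 0.187% to 0.214% of all transcripts, and the groups did not overlap. Without Kif2b the sums were 1367 ± 18.1 and 1322 ± 4.32 TPM (SD, n = 3 each). Kif2b, a microtubule-depolymerizing motor of the kinetochore, was the most abundant kinesin transcript of the testis. It held 29.6% to 36.3% of the summed kinesin TPM. Kif2b is also the only motor gene of the family with a single exon among its annotated transcripts, and it lies on chromosome 11 at 91575286 to 91577555 (mm10). The next levels over the 6 libraries were those of Kif17 (205 to 254 TPM), Kif9 (189 to 199 TPM), Kif2c (155 to 179 TPM) and Kif27 (110 to 157 TPM). These 5 genes held 66.8% to 70.6% of the kinesin TPM. At the other end, Kif26b stood at 0.39 to 0.50 TPM and Kif26a at 0.72 to 1.34 TPM.

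**Figure D1:**
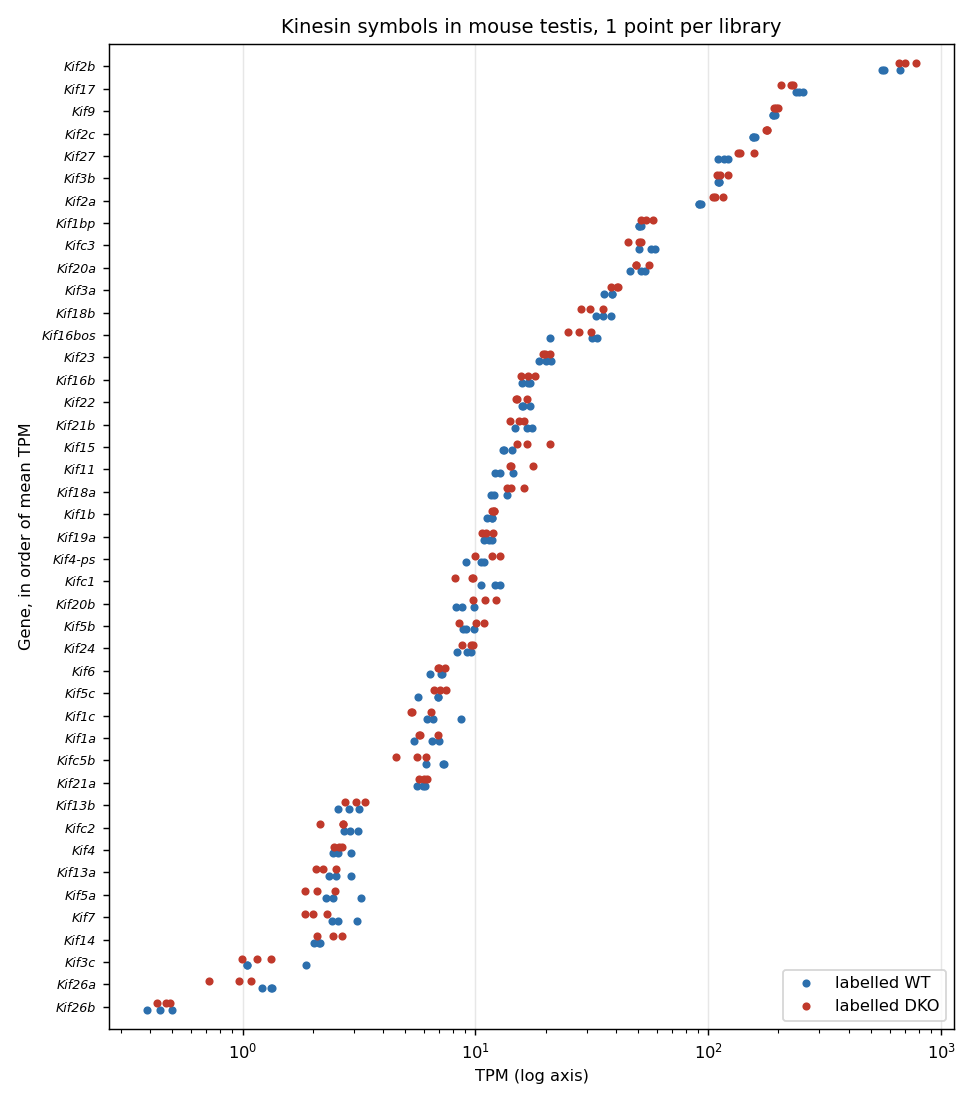
TPM of the 43 kinesin symbols with counts (log axis), in order of their mean, with 1 point per library. Kif2b stands alone near the top at 555 to 778 TPM, and most genes show points of both groups side by side.

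The fold changes were small throughout, between -0.39 and 0.44 on the log2 scale. Of the 43 tested symbols, 5 were called higher in libraries labelled DKO and 0 lower (edgeR quasi-likelihood test, adjusted p under 0.05 over all genes), all 5 of them motors. Over all 17110 tested genes, 10.8% were called, 5.75% higher and 5.10% lower, so the share of kinesins called in either direction was near the background. At an unadjusted p under 0.05, 10 symbols were higher and 5 lower, 34.9% of the 43 against 31.7% of all genes. DESeq2 called 7 higher and 1, Kifc1, lower, against 21.1% of the genes to which it gave an adjusted p. The median log2 fold change was 0.09 over the 43 symbols, 0.04 over all tested genes with transcripts of at least 3000 bases and -0.0042 over all tested genes. Of the tested genes with transcripts of at least 3000 bases, 6.43% were called higher and 2.18% lower. In CPM the groups did not overlap for 12 symbols with the DKO group above and 5 with it below, against 18.4% and 17.5% of all genes, or 35.9% in both directions. In TPM they did not overlap for 5 and 6 symbols, against 33.2% of all genes in both directions.

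The called genes belong to several roles. Kif2a and Kif2c depolymerize microtubules, Kif15 and Kif20b act in the spindle and in cytokinesis, and Kif27 is a motor of motile cilia related to Kif7. How many passed depended on single libraries, for kinesins as for all genes. By edgeR, 0 symbols were called without DKO replicate 1, DKO replicate 2, WT replicate 2 or WT replicate 3, against 0.0643%, 3.83%, 0.0747% and 0.0402% of all genes. In these fits 6, 13, 7 and 12 symbols were at an unadjusted p under 0.05, or 14%, 30.2%, 16.3% and 27.9%, against 20.9%, 27.9%, 21.8% and 24.8% of all genes. Without WT replicate 1 there were 4 calls, against 11.7% of all genes, and without DKO replicate 3 there were 10, against 17.7%. The 5 log2 fold changes were positive in each of the 6 fits that left out a library. With mean fragment length as a covariate 0 kinesins were called by edgeR (0 at an unadjusted p under 0.05, against 3.19% of all genes). The log2 fold changes of Kif15 and Kif27 were then -0.14 and -0.03. Since fragment length did not overlap between the groups, this fit can hardly separate it from labelled genotype.

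**Figure D2:**
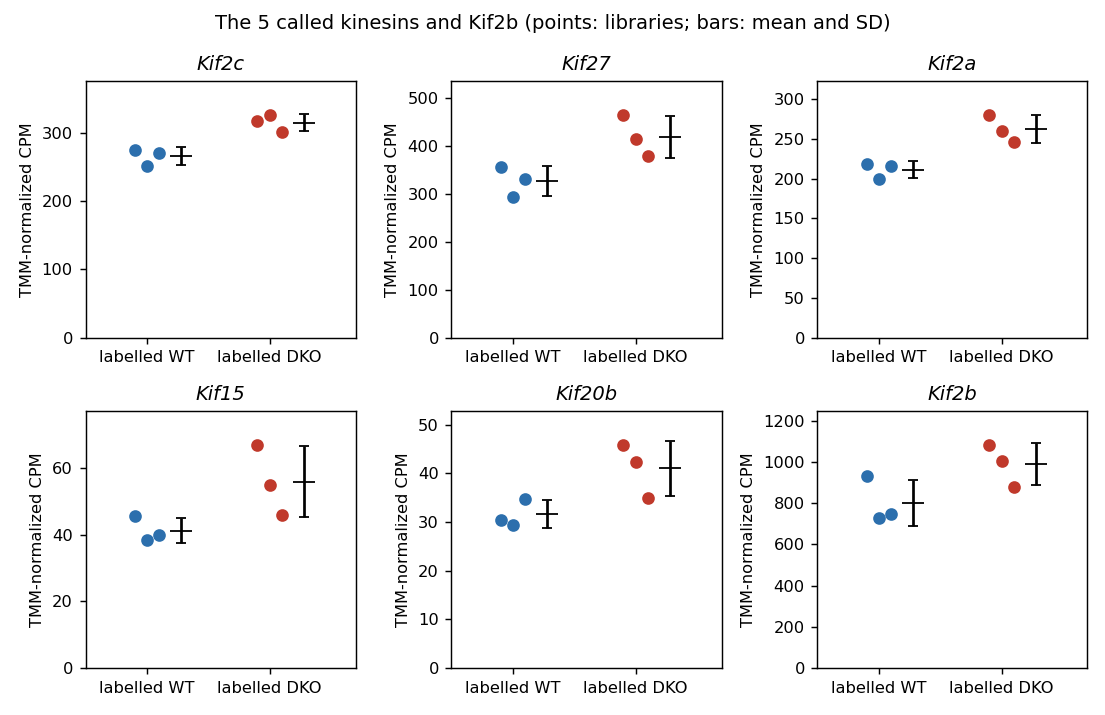
TMM-normalized CPM of the 5 called kinesins and of Kif2b in each library (points), with mean and SD (n = 3 per group) beside them. The groups do not overlap for the 5 called genes, while Kif2b in WT replicate 1 (932 CPM) lies above DKO replicate 3 (880 CPM).

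Promoters were read for 2 short motifs that lie in many cell cycle promoters: CCAAT, bound by NF-Y, and TTTGAA, the cell cycle genes homology region. Both strands of the 250 bases before each RefSeq start were searched (GRCm38.p6). Only starts within 500 bases of the start of the gene were used, since 7 of 39 kinesin windows, among them those of Kif2c and Kif27, belonged to starts deeper inside the gene. The remaining 32 windows came from 29 of the 44 symbols. CCAAT was present in 8 of 11 windows of spindle and cytokinesis motors, 3 of 7 of the cilium group and 2 of 9 of the transport group, against 34.5% of all 26255 windows. TTTGAA was present in 3 of 11, 0 of 7 and 0 of 9, against 16.3% of all. Counted by gene, CCAAT was present in 8 of 11, 3 of 6 and 1 of 8, as both transport windows with it belong to Kif1b. The 8 spindle genes with it include Kifc1 and its close paralog Kifc5b. Among the called genes with a window, Kif15 held TTTGAA in 2 places, and the windows of Kif2a and Kif20b held neither motif. A match describes these letters only and says nothing of binding.

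The windows of Kif2b, the most abundant member, of Kif11, which holds both motifs, and of Kif20b, a called gene that holds neither, are shown to set these promoter types side by side. Each ends at the base before the start, and capitals mark a match on either strand. The CCAAT of Kif2b begins 44 bases before the start, and Kif11 carries it on the other strand as ATTGG, 45 bases before the start.
Kif2b, chr11:91577556-91577805, minus strand: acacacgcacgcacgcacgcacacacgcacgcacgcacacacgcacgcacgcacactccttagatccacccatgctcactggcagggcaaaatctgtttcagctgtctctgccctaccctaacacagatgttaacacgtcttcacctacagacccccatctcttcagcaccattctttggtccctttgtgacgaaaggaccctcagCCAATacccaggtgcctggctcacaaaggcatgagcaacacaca
Kif11, chr19:37376132-37376381, plus strand: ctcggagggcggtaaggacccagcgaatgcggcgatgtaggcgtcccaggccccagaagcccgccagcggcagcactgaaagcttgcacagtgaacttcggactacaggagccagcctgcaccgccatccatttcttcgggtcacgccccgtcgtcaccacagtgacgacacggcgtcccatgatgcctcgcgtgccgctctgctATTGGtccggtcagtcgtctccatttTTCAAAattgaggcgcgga
Kif20b, chr19:34922108-34922357, plus strand: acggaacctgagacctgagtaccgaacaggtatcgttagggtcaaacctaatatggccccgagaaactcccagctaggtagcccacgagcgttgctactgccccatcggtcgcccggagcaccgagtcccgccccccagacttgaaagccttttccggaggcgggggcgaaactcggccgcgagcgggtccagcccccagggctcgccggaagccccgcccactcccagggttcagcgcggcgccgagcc

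Across the family, the fold change followed the base composition of the transcripts. Over the 40 tested motors, the log2 fold change and transcript GC content had a Spearman's rho of -0.80, given as a description, since the genes share the same 6 libraries. Leaving out each library gave values from -0.71 (without DKO replicate 1) to -0.82. All 18 motors with a GC content under 50% had a positive log2 fold change, from 0.03 to 0.44, of which 4 were called. Without WT replicate 3 this held for 17 of the 18, and for all 18 without each of the other libraries. Of the 22 motors at or above 50% GC, 14 had a negative one and 8 a positive one, and 1, Kif2c (50.5% GC), was called. Among all tested genes under 50% GC, 10.9% were called higher and 1.67% lower. Among those at or above 50% GC the shares were 0.83% and 8.35%. Kif18a, Kif20b and Kif2a had the lowest GC contents, 38.3%, 39.4% and 40.2%, with log2 fold changes of 0.30, 0.38 and 0.31. Kif26a had the highest, 61.7%, and the lowest log2 fold change, -0.39.

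The same relation ran through the whole transcriptome. Over 16840 tested genes with a known GC content, rho was -0.58, and 72.8% of those under 50% GC had a positive log2 fold change against 26.6% of the others. Transcript length, by contrast, was nearly unrelated to the fold change among the motors (rho 0.05), which are long, with a median of 4821 bases and a range of 2064 to 9819. The smooth trend of each library on length and GC content was then removed. That step takes out the relation with GC by construction (rho -0.06), along with any effect of genotype that follows GC content. By edgeR 0 kinesins were then called (6 at an unadjusted p under 0.05, all higher, which is 14% of the 43 against 21.5% of all genes). The share called was then 2.86% over all genes, 1.74% higher and 1.12% lower. Removing the GC trend alone also left 0 calls (8 unadjusted, 18.6% against 22.4% of all genes), against 2.88% of all genes, 1.29% higher and 1.60% lower. Removing the length trend alone left 2, Kif27 and Kif2a, against 10% of all genes. The same 2 were called with an offset for the effective length, against 9.71%, 5.59% higher and 4.12% lower.

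**Figure D3:**
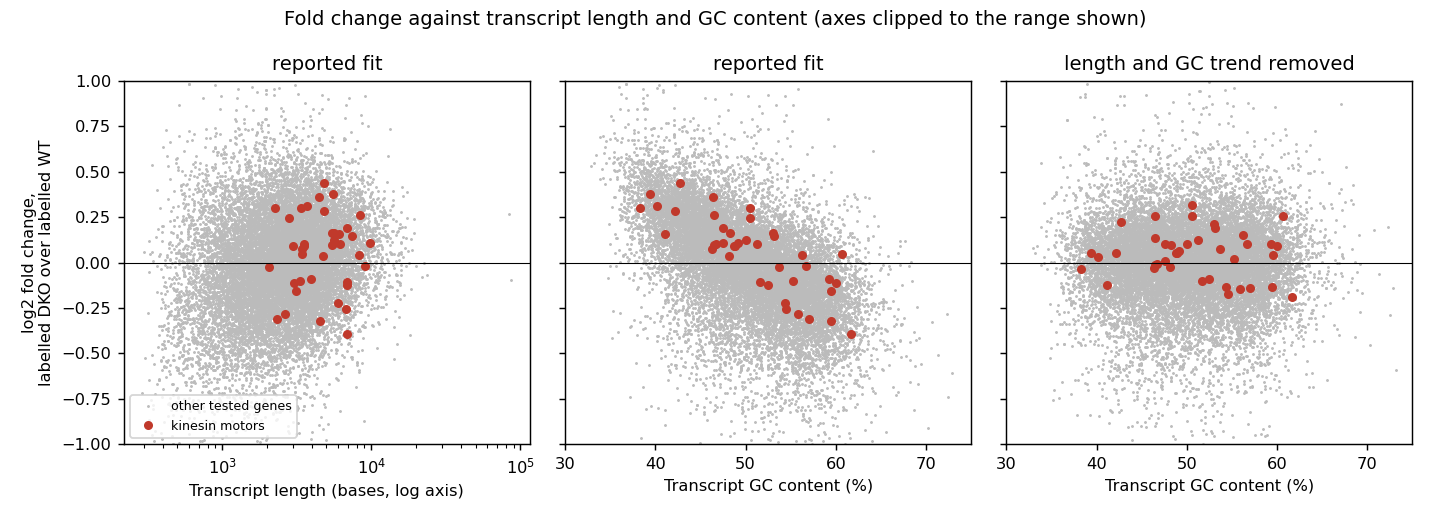
Log2 fold change of each tested gene (grey) and of the 40 kinesin motors (red) against transcript length (left, log axis) and GC content in percent (middle), and against GC content with each library's length and GC trend removed (right). The red points slope down with GC content in the middle panel (rho -0.80). They lie level in the right one (rho -0.06), as follows from removing the trend.

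The libraries also differed in this measure within a group. The median deviation of the low-GC motors from their mean over all libraries, in log2 CPM, was 0.13 in DKO replicate 1, whose fragments averaged 317 bases, 0.08 in DKO replicate 2 (289 bases) and 0.00 in DKO replicate 3 (275 bases). It was -0.05, -0.12 and -0.04 in WT replicates 1, 2 and 3 (258, 230 and 246 bases). The motors at or above 50% GC had medians of -0.12, 0.05 and -0.01 in DKO replicates 1 to 3 and 0.05, 0.07 and -0.06 in WT replicates 1 to 3, and overlapped between the groups. All 8265 low-GC genes had medians of 0.14, 0.05 and 0.02 in the DKO group and -0.05, -0.11 and -0.05 in the WT group. The 8575 genes at or above 50% GC had medians of -0.12, -0.03 and -0.02 in the DKO group and 0.05, 0.08 and 0.05 in the WT group, so that over all genes both classes separated the groups. The trend of the libraries on GC content, fragment length, depth and labelled genotype cannot be told apart in this design.

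**Figure D4:**
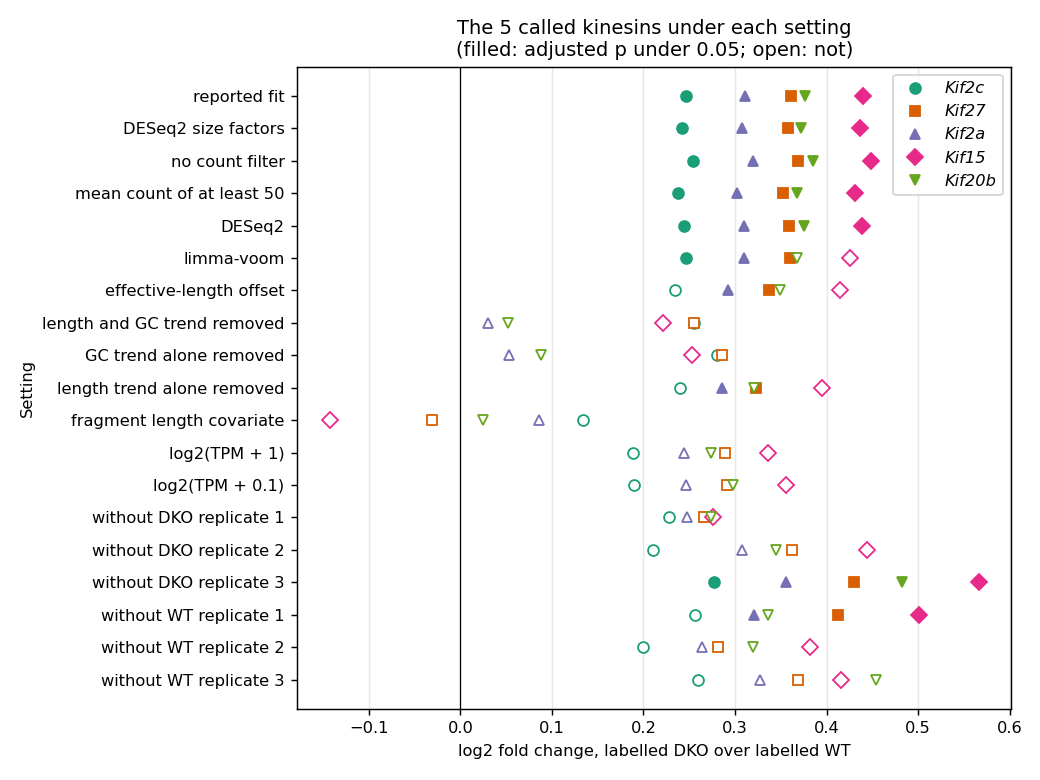
Log2 fold change of the 5 called kinesins in the reported fit and under each other setting (filled where the adjusted p was under 0.05, open where not). All symbols are open where a GC trend was removed, on TPM, with fragment length as a covariate and without DKO replicate 1, DKO replicate 2, WT replicate 2 or WT replicate 3, and Kif15 and Kif27 lie below 0 with the fragment length covariate.

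Spindle and cytokinesis motors formed the group with the largest summed level, 1035 to 1155 TPM in libraries labelled DKO and 914 to 1006 TPM in those labelled WT. Most of these sums came from Kif2b alone, at 656 to 778 and 555 to 667 TPM. Of its 14 members, 3 were called higher and 0 lower, and 10 had a positive log2 fold change, with a median of 0.17. Over all tested genes 5.75% were called higher and 5.10% lower. With the length and GC trend removed 0 of the 14 were called, and their median was 0.05. The summed spermatocyte markers did not overlap between the groups either, with 2 of 10 called, as given above. Their part in the values of the spindle motors was not tested.

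Kif2b read 656 to 778 TPM in libraries labelled DKO and 555 to 667 TPM in those labelled WT. The groups overlapped, and its log2 fold change of 0.30 (SE 0.107) did not pass the threshold (edgeR adjusted p = 0.0819; 0.0279 with DESeq2). Its GC content of 50.5% is close to the median of the motors, and the value was 0.32 with the length and GC trend removed (adjusted p = 0.138). It was called without DKO replicate 3 and without WT replicate 1.

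Kif2c, which corrects wrong attachments of chromosomes to the spindle, stood at 317, 326 and 301 CPM in DKO replicates 1 to 3 and at 275, 251 and 270 CPM in WT replicates 1 to 3. Every library labelled DKO was above every library labelled WT. It rose by 18.6% (log2 fold change 0.25, SE 0.0709; edgeR adjusted p = 0.0489). With the length and GC trend removed the value was again 0.25 (adjusted p = 0.0719).

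Kif15, a plus-end motor that works beside Kif11 to keep the spindle bipolar, had the largest change of the family. It was at 67.1, 55.0 and 45.9 CPM in DKO replicates 1 to 3 against 45.6, 38.3 and 39.9 CPM in WT replicates 1 to 3. DKO replicate 3 lay just above WT replicate 1. The log2 fold change was 0.44 (SE 0.124; edgeR adjusted p = 0.0457), and 0.22 with the length and GC trend removed (adjusted p = 0.196).

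Kif20b, a motor of late cytokinesis, stood at 45.8, 42.3 and 34.8 CPM in DKO replicates 1 to 3 and at 30.4, 29.4 and 34.8 CPM in WT replicates 1 to 3. The lowest DKO and the highest WT value were nearly equal, and in TPM the groups overlapped. The log2 fold change was 0.38 (SE 0.107; edgeR adjusted p = 0.0468) and 0.05 with the trend removed (adjusted p = 0.737).

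Kif11, the motor that pushes the spindle poles apart, and Kif18a, which aligns chromosomes, had groups that overlapped in CPM. Kif11 was at 56.6, 46.5 and 42.9 against 40.5, 35.2 and 44.3 CPM (log2 fold change 0.28; edgeR adjusted p = 0.111). Kif18a was at 35.2, 31.8 and 28.4 against 25.9, 22.9 and 28.4 CPM (0.30; edgeR adjusted p = 0.0727; 0.0407 with DESeq2), and in TPM its groups did not overlap. With the trend removed these became 0.05 and -0.04. Kif20a and Kif23, both needed for the central spindle and cytokinesis, had log2 fold changes of 0.09 and 0.07, within 1.34 times their standard errors. Kif20a shared fragments with other genes, as its counts were fractional in all 6 libraries, and it overlaps Brd8 and Cdc23 in the annotation.

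A pair of minus-end motors lay lower in the libraries labelled DKO without passing the threshold. Kifc1 is a spindle motor that in spermatids is also linked to the manchette and the acrosome, and Kifc5b is its close paralog. Kifc1 was at 11.6, 14.2 and 13.4 CPM in DKO replicates 1 to 3 against 15.1, 16.0 and 17.6 CPM in WT replicates 1 to 3, and Kifc5b at 7.52, 9.56 and 9.72 against 10.1, 11.1 and 11.5 CPM. Both had groups that did not overlap. Their log2 fold changes were -0.31 (SE 0.102; edgeR adjusted p = 0.0675; 0.0454 with DESeq2) and -0.28 (SE 0.116; edgeR adjusted p = 0.118). Both carried fractional counts in all 6 libraries, so fragments had been divided between near-identical genes. Summed into 1 gene, the pair was at 22.0 ± 2.51 against 27.1 ± 1.93 CPM (SD, n = 3 each; log2 fold change -0.30; edgeR adjusted p = 0.0671).

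Kif4, a chromosome-bound motor on the X chromosome with up to 30 exons, was low at 2.44 to 2.91 TPM, with a log2 fold change of 0.03. Its pseudogene Kif4-ps, a single-exon copy on chromosome 12, stood at 9.14 to 12.8 TPM. The counts of both were whole numbers, within 0.005, in all 6 libraries. Kif4-ps had a log2 fold change of 0.24 with overlapping groups (edgeR adjusted p = 0.159).

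The group for cilium, flagellum and manchette summed to 732 to 756 TPM in libraries labelled DKO and 724 to 741 TPM in those labelled WT, values that overlapped. Of its 9 members 1, Kif27, was called higher and 0 lower, with a median log2 fold change of 0.10. Over all tested genes 5.75% were called higher and 5.10% lower. Markers of round spermatids (2049 to 2102 against 1901 to 2245 CPM) and elongating spermatids (21326 to 25573 against 22659 to 25605 CPM) overlapped too.

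Kif27 was at 465, 413 and 378 CPM in DKO replicates 1 to 3 and at 356, 293 and 330 CPM in WT replicates 1 to 3. The groups did not overlap, and DKO replicate 1 was the highest. It rose by 28.4% (log2 fold change 0.36, SE 0.0953; edgeR adjusted p = 0.0394), and the value was 0.26 with the trend removed (adjusted p = 0.109). Kif7, its relative in Hedgehog signalling at the cilium tip, lay at 5.55, 7.06 and 5.71 against 7.17, 8.38 and 7.30 CPM. That is a log2 fold change of -0.32 that did not pass the threshold (edgeR adjusted p = 0.102).

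Kif3a and Kif3b form the motor that carries intraflagellar transport cargo outward, with Kifap3 as its accessory subunit. Kif3a was at 151, 143 and 142 CPM in the DKO group and 129, 126 and 134 CPM in the WT group, a log2 fold change of 0.16 (edgeR adjusted p = 0.123). Kif3b was at 426, 421 and 436 against 412, 380 and 400 CPM, a log2 fold change of 0.11 (edgeR adjusted p = 0.303). For both the groups did not overlap in CPM but did in TPM. Kifap3 passed the threshold, at 318 ± 30.1 against 253 ± 23.9 CPM (SD, n = 3 each; log2 fold change 0.33; edgeR adjusted p = 0.0444).

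Kif17, a homodimeric relative of Kif3 that in spermatids moves a transcription coactivator, had a log2 fold change of -0.09 (edgeR adjusted p = 0.477). Its GC content was 59.3%, and with the trend removed the value was 0.10. Kif9, a motor of the axoneme needed for sperm motility, was at 368, 374 and 360 CPM against 357, 327 and 352, with a log2 fold change of 0.09 (edgeR adjusted p = 0.394). Kif6, another motor of motile cilia, was at 6.38 to 7.37 TPM with overlapping groups. Kif24, which acts at centrioles, and Kif19a, which limits cilium length, had log2 fold changes of 0.13 and 0.05.

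**Figure D5:**
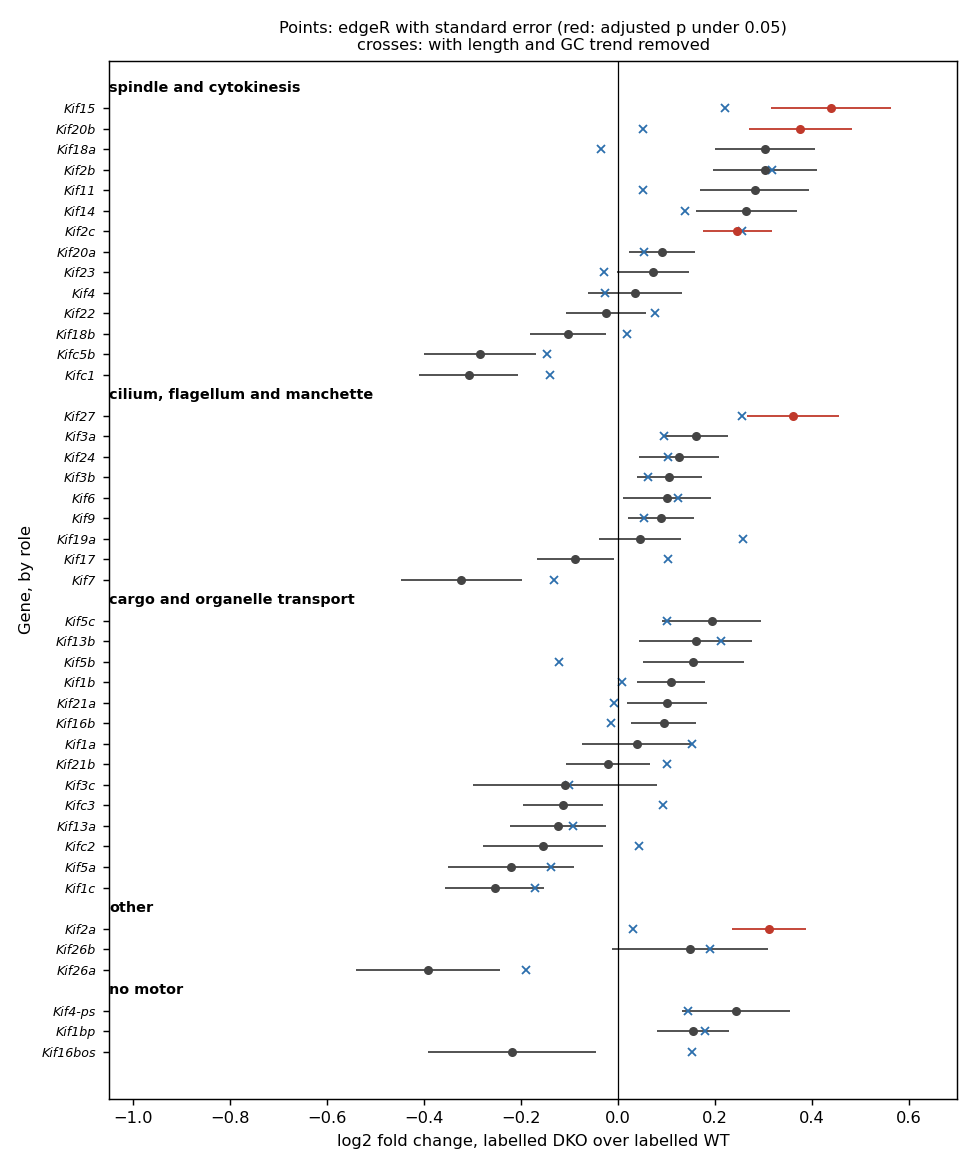
Log2 fold change, labelled DKO over labelled WT, of the 43 tested kinesin symbols by role, with standard errors (points; red where the edgeR adjusted p was under 0.05) and the value with the length and GC trend removed (crosses). The 5 red points lie between 0.25 and 0.44, and the crosses of Kif2a and Kif20b lie near 0.

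Kif2a, which trims microtubules at spindle poles and in the cytoplasm of many cell types, was at 281, 260 and 246 CPM in DKO replicates 1 to 3 and at 219, 199 and 216 CPM in WT replicates 1 to 3. The groups did not overlap. It had the smallest adjusted p of the family (log2 fold change 0.31, SE 0.0755; edgeR adjusted p = 0.0348), and the value was 0.03 with the length and GC trend removed (adjusted p = 0.803). Its gene overlaps Dimt1 in the annotation, and strand handling is not given in the sources used here.

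The 14 motors of cargo and organelle transport held only 133 to 142 TPM in the DKO group and 137 to 157 TPM in the WT group. Of these 0 were called, against 10.8% of all tested genes, and 7 had a positive and 7 a negative log2 fold change. Their median was 0.01. Kif5b, the conventional kinesin found in most cells, was at 8.54 to 10.9 TPM and its paralog Kif5c at 5.68 to 7.48 TPM, with log2 fold changes of 0.15 and 0.19 and overlapping groups (edgeR adjusted p = 0.328 and 0.220). Kifc3, a minus-end motor of cell junctions, was the most abundant of the group at 45.4 to 59.3 TPM. Kif1c, which carries vesicles, had the lowest value of the group, at 24.5, 24.9 and 28.01 CPM against 28.11, 35.5 and 28.7 CPM (log2 fold change -0.25; edgeR adjusted p = 0.114).

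Kif1b, a carrier of mitochondria and vesicle precursors, had a log2 fold change of 0.11 (edgeR adjusted p = 0.308). The estimated length of its transcripts lay lower in the DKO group, without passing the threshold. The abundance-weighted length over its 3 listed transcripts was 9750, 9776 and 9785 bases in DKO replicates 1 to 3 and 9870, 9875 and 9860 bases in WT replicates 1 to 3. The groups did not overlap and stood 97.9 bases apart, which means a different estimated mix of its transcripts. Fragment lengths did not overlap between the groups either, and their part in this estimate was not tested. Tested over the 4020 genes with several transcripts, a varying length and a mean count of at least 50, Kif1b did not pass the threshold (limma, adjusted p = 0.115). That test called 0% of genes, with 446 at an unadjusted p under 0.05. Among the 12 kinesins with several transcripts, Kif2a, Kif2c and Kif9 also had shorter weighted lengths in the DKO group without overlap, by 1.56, 0.88 and 10.8 bases. Shorter lengths without overlap were seen in 8.36% of the 4020 genes, and lengths without overlap in either direction in 17.8%.

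The genes that kinesins work with moved in both directions. As the background for the lists that follow, 5.75% of all tested genes were called higher and 5.10% lower. Of 17 cargo adaptors and other partners, 3 were called higher and 1 lower, with a median log2 fold change of -0.07. Beside Kifap3, these were Rhot1, which ties mitochondria to kinesin (0.36; edgeR adjusted p = 0.0404), Spag9 (0.29; edgeR adjusted p = 0.0381) and Mapk8ip3 (-0.33; edgeR adjusted p = 0.0343), both scaffolds that link kinesin to its cargo. The kinesin light chains Klc1, Klc2, Klc3 and Klc4 had log2 fold changes of -0.10, -0.07, 0.12 and -0.23, none past the threshold. For Klc4 the DKO group lay below the WT group without overlap in CPM (edgeR adjusted p = 0.116). Of 18 spindle partners, 3 were called higher and 0 lower, with a median of 0.08. They are the checkpoint kinases Bub1 (0.40; edgeR adjusted p = 0.0263) and Ttk (0.37; edgeR adjusted p = 0.0270) and the cytokinesis factor Ect2 (0.34; edgeR adjusted p = 0.0493). Cenpe, a kinetochore kinesin whose symbol lies outside the naming rule, was at 98.1 ± 10.5 against 79.1 ± 6.91 CPM (0.31; edgeR adjusted p = 0.0536).

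Of 19 manchette genes, 3 were called higher and 0 lower, with a median of 0.10: Hook1, a linker of the manchette (0.48; edgeR adjusted p = 0.0282), Sun3, which anchors it to the nucleus (0.43; edgeR adjusted p = 0.0461), and Lrguk (0.29; edgeR adjusted p = 0.0495). Of 28 genes of cytoplasmic dynein, the motor that runs opposite to most kinesins, and of its partners, 3 were called in each direction. For both lists the shares over all tested genes were 5.75% higher and 5.10% lower. The light chains Dynll2, Dynlrb1 and Dynlrb2 fell, with log2 fold changes of -0.47, -0.53 and -0.34, and Actr10, Pafah1b1 and Ndel1 rose by 0.35, 0.33 and 0.30. With the offset for effective length 3 of the 16 calls in these lists ended, those of Dynlrb2 (-0.11; edgeR adjusted p = 0.375), Ect2 and Lrguk. With the length and GC trend removed 2 genes were called, both higher. They are Ndel1 (0.30; edgeR adjusted p = 0.0421) and Klc3, the light chain expressed in spermatids, which was at 0.12 without that step (0.40; edgeR adjusted p = 0.0202).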

How the data were processed

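RNA of whole testes was sequenced in 6 libraries, 3 labelled DKO and 3 labelled WT. STAR 2.7.0f, RSEM 1.2.31, DESeq2 1.12.3 and the build mm10 are named in the submitters' processing notes, with no role given, and strand handling is not given in the sources used here. Per the file headers, the authors deposited for each gene an expected count, which is an estimate (93.2% were whole numbers within 0.005). Per the file headers, the authors also deposited TPM and FPKM values per gene, with abundance-weighted lengths and effective lengths in bases. FPKM were not used.

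Expected counts were rounded. Genes were kept by filterByExpr (17110 of 24411), scaled by TMM and tested with edgeR 4.0.16 (quasi-likelihood), genotype as the only term, Benjamini-Hochberg over all genes, called at an adjusted p under 0.05. CPM are TMM-normalized. Standard errors are the log2 fold change over the square root of F. The alternatives were other normalization, filters (a mean count of at least 50, or none), DESeq2 1.42.0, limma 3.58.1 (voom, or log2(TPM + 1) and log2(TPM + 0.1)), offsets for effective length and for trends on length and GC content (mgcv 1.9.3; GC from GENCODE M21 transcripts by RefSeq accession, found for 97.8% of genes), mean fragment length as a covariate (recovered from the gap between deposited lengths and effective lengths in genes above 3000 bases), and leaving out each library. The fits on GC or length alone, the summed Kifc1 and Kifc5b, the split at 50% GC, the test of weighted length and the 500-base limit on promoter starts were chosen after seeing the data. The test was also run on counts simulated without a GC trend or a difference in fragment length. That run does not bear on either in these data.

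The members, roles and lists were chosen with earlier results of these data known. Named are Abcc5 and Abcc12, all called members, the 5 highest by TPM, a list of members with known roles in testis, spindle or flagellum, and called genes of the related lists; other members (Kif1b, Kif1c, Kif4, Kif4-ps, Kif7, Kif19a, Kif24, Kif26a, Kif26b, Kifc3), Cenpe and the light chains were named after their values were seen. Depth was 26753700 to 67131100 expected counts per library. P-values weigh the difference between the groups against the spread of these 3 libraries per group. In edgeR that spread was estimated with information shared over all tested genes. Protein sequences were not used here.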

Additional observations from a re-analysis of the deposited data

How the results depend on the processing

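No paired analysis was possible because the labels number no replicates: the numbers 1 to 3 only name the libraries of each group in deposit order, and nothing ties a number to a litter, batch or day. The direction of the 5 called kinesins was positive under every setting except the fragment length covariate, which turned Kif15 to -0.14 and Kif27 to -0.031. Leaving out each library gave from 0 to 10 kinesins called higher, 0 called lower, from 7 to 3029 genes called in all, from 0 to 26 called in the related lists, and kinesin medians from 0.07 to 0.11.

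The fits with the GC or length trend alone removed were added after seeing the data. The reported counts were 5 kinesins higher, 0 lower, 1856 genes in all and 16 in the related lists. DESeq2 gave 1 kinesin lower (Kifc1) and 2921 genes. Kinesins called higher were 3 with limma-voom, 2 with the effective-length offset, 2 with the length trend alone removed (kinesin median 0.052), and 0 with either fit on GC content, the fragment length covariate or TPM. With the length and GC trend removed 489 genes were called, 2 of them in the related lists, with a kinesin median of 0.054; with the GC trend alone removed 493 and 4. With the fragment length covariate, 1 gene was called, 0 in the lists, with a kinesin median of -0.0025 and 545 genes at an unadjusted p under 0.05. This fit has fewer residual degrees of freedom, and it can hardly separate fragment length, which did not overlap between the groups, from labelled genotype. Limma on log2(TPM + 1) called 735 genes, 2 in the lists (median 0.023), and on log2(TPM + 0.1) 947 and 3 (median 0.026), with 12 kinesins at an unadjusted p under 0.05 in each. The causes were not tested.

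With the length and GC trend removed, Kif17 turned to 0.10, Kif5b to -0.12, Kif18a to -0.035 and Kif23 to -0.028, and with the GC trend alone removed to 0.14, -0.081, -0.016 and -0.0035. With the fragment length covariate, Kif2b turned to -0.11, Kif5b to -0.18, Kif6 to -0.064, Kif11 to -0.18, Kif18a to -0.047, Kif23 to -0.058, Kifc5b to 0.093, Ect2 to -0.054, Kifap3 to -0.032, Rhot1 to -0.042 and Sun3 to -0.13. These changes of sign come from the fit that can hardly separate fragment length from labelled genotype. In the reported fit, the standard errors were widest for Kif3c, Kif16bos, Kif26b and Kif26a, at 0.19, 0.17, 0.16 and 0.15 on the log2 scale, on 57 to 397 counts per library.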
